A study of Mus musculus with 6 samples.

Results

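Homologous recombination repairs broken DNA and rescues stalled replication forks by copying an intact sister strand, and its genes are transcribed mainly in cells that prepare for or pass through S phase. This account covers 34 mouse genes named as members: the Fanconi anaemia proteins, BRCA1, BRCA2 and their partners, factors of strand exchange, helicases and nucleases of repair intermediates, fork-protection proteins, and the ATR and ATM checkpoint kinases. A member was taken where the count table had an entry of its name with at least 60 reads over all libraries. That gave 33 of the 34 genes, out of 41972 entries, and all 33 passed the filter on low counts that left 12740 genes for testing. Polq had no entry under that name and was not analysed here. The lowest totals inside the limit were 282 reads for Rad54b and 432 for Fancg, and 0 members had an entry below it.

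The series holds 6 RNA-seq libraries of macrophages grown from the marrow of wild-type C57BL/6 mice, males of 6 weeks, for 6 days. The medium held 20% serum, and 30% of it had been conditioned by L-929 cells, which supplies the growth factor M-CSF. The cells then received extracellular vesicles (EVs), the membrane-bound particles that cells shed, from the mould Aspergillus flavus. In the LD-F1 group and in the LD-F1_b group, 20 µg of EVs per well was given for 6 h. PBS for 6 h was the control. Both EV labels are called strains in the sample titles, and the sources used here do not explain the suffix. Each group had 2 replicates, stated to be biological, and p-values measure only the spread between them, since the sources used here do not say how many mice or cultures they came from.

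Libraries held 13722215 to 15277997 reads on genes. The macrophage markers Adgre1, Csf1r and Cd68 lay between 388 and 1336 CPM in every library, where CPM is the read count scaled to library size (TMM), while Itgam, Mertk and C1qa, other macrophage markers, were all under 1 CPM. Summed over 9 macrophage markers, the level was 3238 and 3199 CPM for the LD-F1 libraries, 3143 and 3242 CPM for the LD-F1_b libraries, and 2801 and 2811 CPM for the PBS libraries. Single markers went different ways: Cd14 was at 893 and 1083 CPM for LD-F1, 750.2 and 805 CPM for LD-F1_b, and 417 and 427 CPM for PBS, whereas Mrc1 was at 16.6 and 14.5 CPM for LD-F1, 20.7 and 18.9 CPM for LD-F1_b, and 24.4 and 21.2 CPM for PBS. Csf1r was at 1208 and 1142 CPM for LD-F1, 1264 and 1315 CPM for LD-F1_b, and 1336 and 1296 CPM for PBS. Markers of lymphoid cells summed to at most 0.441 CPM in any library, and of granulocytes to under 2 CPM, with Ly6g and Cd3e at 0. The 6 dendritic cell markers summed to 8.99 and 8.89 CPM for LD-F1, 7.16 and 6.15 CPM for LD-F1_b, and 3.26 and 2.90 CPM for PBS. Most of that was Xcr1, at 7.72 and 8.39 CPM for LD-F1, 4.80 and 4.08 CPM for LD-F1_b, and under 2 CPM in both PBS libraries, with Siglech at 0. The part of these markers in the results was not tested. The LD-F1 replicates differed from each other along gene length (Spearman's rho of their log2 difference with length = -0.48 across 9661 genes, against -0.20 for LD-F1_b and -0.01 for PBS). Longer genes were also lower in both EV groups relative to PBS (rho of the log2 fold change with length = -0.25 for LD-F1 and -0.26 for LD-F1_b), and the members are long, with a median of 5815 bases against 3475 bases over all genes tested.

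Macrophages of the PBS group carried RNA of all 33 genes. Per kilobase of gene length, which allows genes to be compared, levels in PBS ran from 0.769 ± 0.161 CPM per kilobase for Rad54b to 55.4 ± 2.40 for Tipin (SD, n = 2), with a median of 4.26 over the members. Tipin and its partner Timeless (11.8 ± 0.292) hold the replisome together at the fork. Msh6, which recognises mismatches left by replication, reached 23.1 ± 1.08, the ATR activator Topbp1 22.7 ± 0.354 and the fork-repair factor Tonsl 13.7 ± 0.0989. The Fanconi anaemia genes lay low, between 1.62 ± 0.112 for Fancg and 3.56 ± 0.0997 for Fanca, as did Brca2, a mediator of recombination, at 1.91 ± 0.0283. In that order many neighbours lay within the spread of their replicates, for example Msh6 and Topbp1, or Brca2 and its partner Palb2 at 2.00 ± 0.457.

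**Figure D1:**
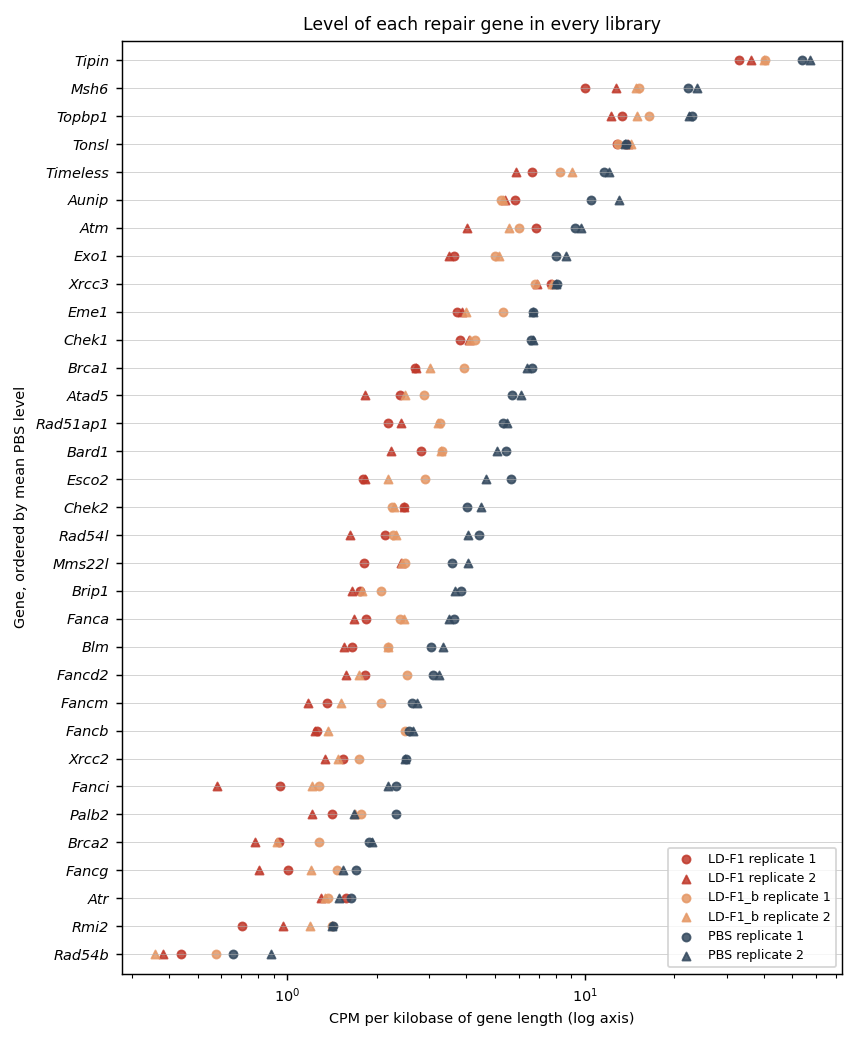
CPM per kilobase of gene length (log axis) of the 33 genes in every library, ordered by their mean in PBS. Circles are replicate 1 and triangles replicate 2. For 31 genes both LD-F1 libraries lay below both PBS libraries (29.6% of all genes tested), and for 30 genes both LD-F1_b libraries did (30.0%).

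With LD-F1 EVs, 29 of the 33 genes fell and 0 rose relative to PBS, where "fell" means an edgeR quasi-likelihood test with an adjusted p under 0.05 over all genes tested. Of all genes tested, 9.87% were called lower and 11.4% higher. The median log2 fold change of the members was -0.92, against 0.01 over all genes, and 33 of 33 values were below 0 (49.3% of all genes), or 31 of 33 with offsets for gene length. Their fitted levels ranged from 33.8% to 98.0% of PBS, with a median of 52.9%, and 15 genes were under 50% of PBS. In 31 genes both LD-F1 libraries lay below both PBS libraries, which was so for 29.6% of all genes. Since these are bulk samples, fewer cells in cycle and less RNA per cell cannot be told apart. Leaving out 1 library at a time left 23 to 28 members lower. Against 29, the lowest counts came without either PBS replicate. The calls of Atm, Chek2, Fancb, Fancg, Palb2, Rmi2 and Xrcc2 were each lost without at least 1 library.

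**Figure D2:**
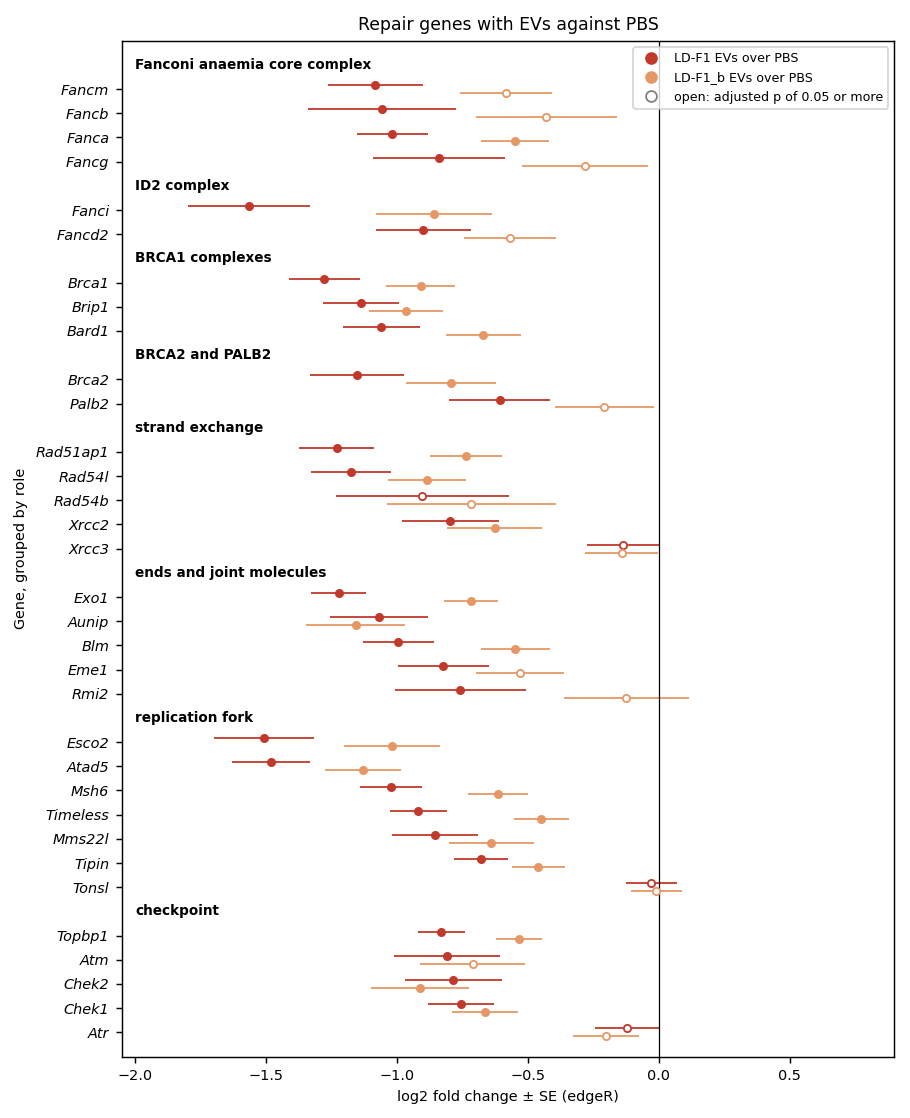
Log2 fold changes ± SE of the 33 genes, grouped by role, for LD-F1 EVs over PBS (dark) and LD-F1_b EVs over PBS (light). Filled points had an adjusted p under 0.05. With LD-F1 EVs, Tonsl, Xrcc3 and Atr lie nearest 0. With LD-F1_b EVs, Rmi2 and Palb2 lie near 0 as well.

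The Fanconi anaemia pathway detects DNA crosslinks and stalled forks: its core complex, held at the damage by FANCM, attaches ubiquitin to the paired proteins FANCI and FANCD2, the ID2 complex. All 4 core genes among the members fell with LD-F1 EVs, as did both genes of the ID2 complex. Other core genes, such as Fancl, are not members and are counted further below with the other Fanconi genes. Fanci had 5.47 and 3.34 CPM in the LD-F1 libraries, 7.37 and 6.98 CPM in the LD-F1_b libraries, and 13.4 and 12.6 CPM in the PBS libraries. No EV library reached the PBS range, and the LD-F1 replicates differed between themselves. Its log2 fold change of -1.57 ± 0.23 (SE, adjusted p = 0.0005) was the lowest of the 33. For Fancd2 the LD-F1 libraries held 14.5 and 12.5 CPM, the LD-F1_b libraries 20.1 and 13.8 CPM, and the PBS libraries 24.5 and 25.8 CPM, with a log2 fold change for LD-F1 of -0.90 ± 0.18 (adjusted p = 0.00366). The EV groups overlapped each other for Fancd2, and neither overlapped PBS.

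Among the core genes, Fancm, whose product is a DNA translocase, had 10.6 and 9.10 CPM with LD-F1 EVs, 16.1 and 11.7 CPM with LD-F1_b EVs, and 20.5 and 21.2 CPM with PBS. Fanca had 14.7 and 13.4 CPM with LD-F1 EVs, 19.2 and 19.7 CPM with LD-F1_b EVs, and 29.0 and 27.9 CPM with PBS. In both genes the groups stood apart in that order, without overlap. The scaffold genes Fancb and Fancg were scarce, with 510 and 432 reads in all. They fell with LD-F1 EVs by 1.06 ± 0.28 and 0.84 ± 0.25 on the log2 scale (adjusted p = 0.0197 and 0.0339), and both calls were lost without either PBS replicate. The call of Fancg was also lost with DESeq2, with only the groups compared in the fit, and without LD-F1 replicate 2 or either LD-F1_b replicate.

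BRCA1 and BARD1 form a ubiquitin ligase that starts recombination at a break, and BRIP1 is a helicase bound to BRCA1. All 3 of their genes fell with LD-F1 EVs. Brca1 had 22.9 and 23.1 CPM with LD-F1 EVs, 33.7 and 25.7 CPM with LD-F1_b EVs, and 56.9 and 54.6 CPM with PBS, at 41.3% and 53.3% of PBS in the fits for LD-F1 and LD-F1_b (adjusted p = 3.58e-05 and 0.000868). Every EV library was well below the PBS pair, and the LD-F1_b replicates differed more from each other than the LD-F1 replicates. Bard1 fell with LD-F1 EVs by 1.06 ± 0.15 on the log2 scale (adjusted p = 0.000291) and Brip1 was at -1.14 ± 0.14 (adjusted p = 0.000151). PALB2 bridges BRCA1 and BRCA2, which then acts on the DNA at the break. Brca2 had 12.4 and 10.2 CPM with LD-F1 EVs, 16.8 and 12.2 CPM with LD-F1_b EVs, and 24.9 and 25.4 CPM with PBS, so that the EV groups overlapped each other below PBS. Palb2 had 10.3 and 8.89 CPM with LD-F1 EVs, 13.0 and 12.4 CPM with LD-F1_b EVs, and 17.0 and 12.3 CPM with PBS. The PBS replicates of Palb2 were wide apart, with the lower value just under both LD-F1_b values. Its call for LD-F1 (-0.61 ± 0.19, adjusted p = 0.043) was lost with DESeq2, with only the groups compared in the fit and with length offsets. It was also lost without PBS replicate 1, LD-F1 replicate 2 or either LD-F1_b replicate.

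Strand exchange, in which a broken end pairs with the intact copy, is aided by the motor proteins RAD54L and RAD54B, by RAD51AP1 and by XRCC2 and XRCC3. Of these 5 genes, 3 fell with LD-F1 EVs. Rad51ap1 had 10.5 and 11.6 CPM with LD-F1 EVs, 15.7 and 15.4 CPM with LD-F1_b EVs, and 25.5 and 26.3 CPM with PBS, giving 3 separate levels and a log2 fold change for LD-F1 of -1.23 ± 0.14 (adjusted p = 7.96e-05). Rad54l had 16.4 and 12.5 CPM with LD-F1 EVs, 17.5 and 17.9 CPM with LD-F1_b EVs, and 34.0 and 31.3 CPM with PBS. Its relative Rad54b, the scarcest member, was at -0.90 ± 0.33 (adjusted p = 0.0742) and did not pass. Xrcc2 and Xrcc3 had unlike values. Xrcc2 fell by 0.80 ± 0.18 on the log2 scale (adjusted p = 0.00897), while Xrcc3, at 21.1 and 18.9 CPM with LD-F1 EVs, 18.6 and 21.2 CPM with LD-F1_b EVs, and 22.1 and 21.9 CPM with PBS, was at -0.14 ± 0.14 (adjusted p = 0.545). The difference between these genes was not tested.

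Broken ends are trimmed by nucleases such as EXO1, aided by AUNIP, and the joined molecules that recombination leaves are undone by the BLM helicase with RMI2 or cut by EME1 with its partner MUS81. All 5 members of this group, which do not include Mus81, fell with LD-F1 EVs. Exo1 had 30.7 and 29.5 CPM with LD-F1 EVs, 42.2 and 43.3 CPM with LD-F1_b EVs, and 67.7 and 72.9 CPM with PBS. The 3 groups were clearly separate, with small differences between replicates, and the log2 fold change of -1.22 ± 0.10 for LD-F1 had the lowest adjusted p of the 33 (6.75e-06). Blm had 14.5 and 13.7 CPM with LD-F1 EVs, 19.2 and 19.2 CPM with LD-F1_b EVs, and 26.9 and 29.3 CPM with PBS. Aunip had 7.42 and 6.90 CPM with LD-F1 EVs, 6.68 and 6.77 CPM with LD-F1_b EVs, and 13.4 and 16.6 CPM with PBS. Unlike most members, Aunip had its lowest values with LD-F1_b EVs. Rmi2 fell with LD-F1 EVs at an adjusted p of 0.0496 (-0.76 ± 0.25), and Eme1 fell by 0.82 ± 0.17. The call of Rmi2 was lost with DESeq2 and with only the groups compared in the fit. A term for the replicate number, with or without length offsets, also removed it. So did leaving out LD-F1 replicate 1, either LD-F1_b replicate or either PBS replicate.

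At the replication fork, ATAD5 unloads the sliding clamp PCNA, ESCO2 acetylates cohesin so that sister strands stay together, and MMS22L and TONSL form a complex that promotes recombination at damaged forks. Esco2 had 7.19 and 7.32 CPM with LD-F1 EVs, 11.6 and 8.77 CPM with LD-F1_b EVs, and 22.7 and 18.6 CPM with PBS. Atad5 had 18.1 and 13.8 CPM with LD-F1 EVs, 21.8 and 18.8 CPM with LD-F1_b EVs, and 42.9 and 46.0 CPM with PBS. Both genes thus fell to about the same share of PBS with LD-F1 EVs, 35.2% for Esco2 and 35.8% for Atad5 (adjusted p = 0.000143 and 2.39e-05). Msh6 had 42.6 and 54.1 CPM with LD-F1 EVs, 65.0 and 63.5 CPM with LD-F1_b EVs, and 95.1 and 102 CPM with PBS. Timeless and Tipin fell with LD-F1 EVs, to -0.92 ± 0.11 and -0.68 ± 0.10 on the log2 scale (adjusted p = 8.25e-05 and 0.000563). The partners Mms22l and Tonsl had unlike values. Mms22l fell by 0.85 ± 0.16 (adjusted p = 0.00284), whereas Tonsl had 74.7 and 81.4 CPM with LD-F1 EVs, 75.2 and 83.0 CPM with LD-F1_b EVs, and 80.1 and 79.2 CPM with PBS, a log2 fold change of -0.03 ± 0.10 (adjusted p = 0.875). Whether the partners differed from each other was not tested.

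ATR answers to stalled forks and ATM to double-strand breaks. They signal mainly through the kinases CHEK1 and CHEK2, and TOPBP1 switches ATR on. Of these 5 genes, 4 fell with LD-F1 EVs. Topbp1, the most abundant member before correction for length, had 148 and 136 CPM with LD-F1 EVs, 183 and 166 CPM with LD-F1_b EVs, and 256 and 250.2 CPM with PBS (log2 fold change for LD-F1 -0.83 ± 0.09, adjusted p = 4.04e-05). Chek1 had 17.6 and 18.9 CPM with LD-F1 EVs, 19.8 and 19.1 CPM with LD-F1_b EVs, and 30.7 and 31.0 CPM with PBS, so that both EV groups lay close together and far below PBS. Chek2 had 6.97 and 6.97 CPM with LD-F1 EVs, 6.33 and 6.43 CPM with LD-F1_b EVs, and 11.4 and 12.7 CPM with PBS, the same pattern at a lower level. Atm had 71.0 and 41.5 CPM with LD-F1 EVs, 62.4 and 57.7 CPM with LD-F1_b EVs, and 96.3 and 100.3 CPM with PBS. The LD-F1 replicates of Atm were the farthest apart of all members, and its call for LD-F1 (-0.81 ± 0.20, adjusted p = 0.0212) was lost without either PBS replicate. Atr had 36.3 and 30.2 CPM with LD-F1 EVs, 31.7 and 31.1 CPM with LD-F1_b EVs, and 37.8 and 34.5 CPM with PBS. The LD-F1 libraries overlapped the PBS libraries for Atr, while both LD-F1_b libraries lay below them. Its log2 fold change for LD-F1 was -0.12 ± 0.12 (adjusted p = 0.553).

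With LD-F1_b EVs, 21 of the 33 genes fell and 0 rose relative to PBS, where 4.54% of all genes tested were called lower and 6.44% higher. This comparison shares its PBS libraries with the one above. The median log2 fold change of the members was -0.63, against 0.01 over all genes. Below 0 were 33 of 33 values (49.1% of all genes), or 31 of 33 with offsets for gene length. Fitted levels ranged from 44.8% to 99.4% of PBS with a median of 64.7%. Aunip, Atad5 and Esco2 were the lowest, at -1.16 ± 0.19, -1.13 ± 0.15 and -1.02 ± 0.18 (adjusted p = 0.00193, 0.000386 and 0.00377), and these 3 were the members under 50% of PBS. Brip1 (-0.97 ± 0.14), Chek2 (-0.91 ± 0.19), Brca1 (-0.91 ± 0.13) and Rad54l (-0.89 ± 0.15) followed. By role, 3 of 3 genes of the BRCA1 complexes, 6 of 7 fork genes, 3 of 5 checkpoint genes, 3 of 5 genes of strand exchange, 3 of 5 genes of ends and joint molecules, 1 of 4 Fanconi core genes, 1 of 2 genes of the ID2 complex and 1 of 2 of Brca2 and Palb2 fell. Brca2 fell (-0.79 ± 0.17, adjusted p = 0.0114), and Palb2 was at -0.21 ± 0.19. Fanca was the core gene that fell (-0.55 ± 0.13, adjusted p = 0.0179), while Fancm missed the threshold (-0.58 ± 0.17, adjusted p = 0.0525). Fanci fell (-0.86 ± 0.22, adjusted p = 0.026) and Fancd2 was at -0.57 ± 0.18 (adjusted p = 0.0604). The calls of Fanca, Fanci and Chek2 were among those lost when any single LD-F1_b or PBS library was left out. That of Brca2 was lost without LD-F1_b replicate 2 or either PBS replicate. Fancm and Fancd2 were called with only the groups compared in the fit. In 30 genes both LD-F1_b libraries lay below both PBS libraries, which was so for 30.0% of all genes. The count of 21 dropped to 9 without LD-F1_b replicate 1, 6 without LD-F1_b replicate 2, 7 without PBS replicate 1 and 8 without PBS replicate 2, while the members' median stayed between -0.75 and -0.57 with any 1 library left out.

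Between the EV groups, edgeR called 0 of the 33 genes, where 0.424% of all genes were called in either direction, 0.0157% of all genes higher in LD-F1_b. The members leaned upward in LD-F1_b relative to LD-F1, with a median log2 fold change of 0.35 against -0.00 over all genes, 29 values above 0, 4 below 0 (50.5% of all genes) and 14 at an unadjusted p under 0.05, as were 1119 of all 12740 genes. In 23 genes both LD-F1_b libraries lay above both LD-F1 libraries, which was so for 17.0% of all genes. In 21 genes the libraries fell in the order LD-F1, LD-F1_b, PBS with no overlap, against 7.33% of all genes. Exo1, at 0.51 ± 0.11, came closest to the threshold (adjusted p = 0.0724), and DESeq2 called it as the only member. Timeless (0.47 ± 0.11, adjusted p = 0.116) and Msh6 (0.41 ± 0.12, adjusted p = 0.259) came next. Chek2, Aunip, Atr and Xrcc3 were the 4 genes at or below 0, between -0.13 and -0.01. Without LD-F1 replicate 1 edgeR called 8 members higher in LD-F1_b, namely Atad5, Atm, Bard1, Exo1, Fanca, Fanci, Timeless and Topbp1, and without LD-F1 replicate 2 it called Exo1 and Msh6. Over all genes it then called 602 higher and 550 lower without LD-F1 replicate 1, and 92 higher and 268 lower without LD-F1 replicate 2, against 2 and 52 with every library.

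**Figure D3:**
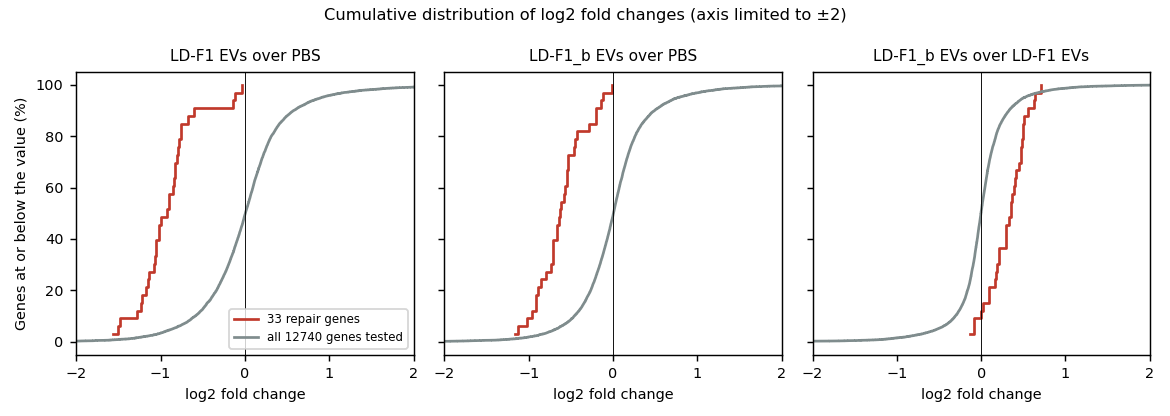
Cumulative share of genes (%) at or below each log2 fold change, for the 33 repair genes and for all 12740 genes tested, in the 3 comparisons. The members' curve lies left of that of all genes with LD-F1 EVs (median -0.92) and with LD-F1_b EVs (median -0.63), and mostly right of it between the EV groups (median 0.35).

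Genes of DNA synthesis and of the cell cycle also fell. Of 21 S phase genes, 20 fell with LD-F1 EVs and 16 with LD-F1_b EVs, with median log2 fold changes of -0.82 and -0.52. Rrm2, which makes deoxynucleotides, fell by 1.25 ± 0.10 with LD-F1 EVs and the helicase gene Mcm2 by 0.89 ± 0.08, while Pcna was at -0.36 ± 0.14 (adjusted p = 0.0849). Of 20 genes of the G2 and M phases, 16 fell with LD-F1 EVs and 5 with LD-F1_b EVs. The proliferation marker Mki67 had 163 and 99.1 CPM with LD-F1 EVs, 206 and 160.1 CPM with LD-F1_b EVs, and 274 and 278 CPM with PBS. Among 16 regulators of the G1/S step, 12 fell and 1 rose with LD-F1 EVs, and 8 fell and 1 rose with LD-F1_b EVs. E2f8, a repressor of that step, fell by 1.62 ± 0.15 and the activator E2f1 by 0.84 ± 0.11 with LD-F1 EVs. The gene that rose was Cdkn1a, the cyclin-kinase inhibitor p21 (0.71 ± 0.09, adjusted p = 0.000111), and Trp53 was at -0.06 ± 0.09. The reads of the 33 members equalled 43.2% and 36.9% of the reads of the S phase list in the LD-F1 libraries, 41.3% and 37.2% in the LD-F1_b libraries, and 42.8% and 43.2% in the PBS libraries. Against the reads of the G2 and M list they equalled 62.7% and 60.2% in the LD-F1 libraries, 62.4% and 61.7% in the LD-F1_b libraries, and 73.2% and 73.0% in the PBS libraries. The ratio to the S phase list overlapped between LD-F1 and PBS, through LD-F1 replicate 1, and was lower in both LD-F1_b libraries than in PBS. The ratio to the G2 and M list was lower in every EV library than in PBS. The part of cell-cycle composition in the members' decrease was not tested. With LD-F1_b EVs, the S phase count was 3 to 9, the G2 and M count 0 or 1 and the G1/S count 2 or 3 when a single LD-F1_b or PBS library was left out, and 20, 14 and 11 without either LD-F1 library. With LD-F1 EVs the G2 and M count was 10 without PBS replicate 2.

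Other genes of the same pathways were read beside the members, and the difference between the lists was not tested. Of 37 further genes of homologous recombination, 14 fell and 1 rose with LD-F1 EVs, and 7 fell with LD-F1_b EVs (medians -0.42 and -0.30). Gen1, which cuts Holliday junctions, fell by 1.06 ± 0.17 and Fignl1, an ATPase of recombination, by 1.06 ± 0.11 with LD-F1 EVs, while Sfr1, a strand exchange factor, rose by 0.31 ± 0.10 (adjusted p = 0.0478). The call of Sfr1 was lost with DESeq2, with length offsets and without any single library other than LD-F1 replicate 1. Of 16 other Fanconi genes, which include the core genes Fancc, Fance, Fancf and Fancl, 2 fell with LD-F1 EVs (list median -0.18). With LD-F1_b EVs edgeR and DESeq2 called 0 of the 16, where 3 had an unadjusted p under 0.05. Those that fell were Apitd1 (-0.84 ± 0.20), a histone-fold partner of FANCM, and Rev1 (-0.38 ± 0.11), a translesion polymerase. Among 23 further fork and checkpoint genes, 10 fell and 1 rose with LD-F1 EVs, and 6 fell with LD-F1_b EVs. Wdhd1, a replisome adaptor, was at -1.32 ± 0.11 and the kinase gene Wee1 at -0.94 ± 0.12 with LD-F1 EVs. Without PBS replicate 1 or 2 the LD-F1 counts were 9 and 7 for recombination, 0 and 0 for the Fanconi list and 6 and 6 for the fork list. When a single LD-F1_b or PBS library was left out, the LD-F1_b counts were 0 to 2 for recombination and 1 or 2 for the fork list. Without either LD-F1 library they were 15 for recombination, 11 for the fork list and 2 for the Fanconi list.

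Other repair routes, which do not copy a sister strand, had these calls. Of 11 genes of end joining, Prkdc and Rif1 fell in both EV groups, with LD-F1 values of -0.67 ± 0.13 and -0.53 ± 0.11, and the list medians were -0.01 for LD-F1 and -0.07 for LD-F1_b. Base excision and single-strand break repair had 4 of 20 genes lower and 1 higher with LD-F1 EVs. Among them were Ung (-1.07 ± 0.12), which removes uracil from DNA, and Aptx, which cleans broken ends (0.75 ± 0.16). With LD-F1_b EVs 2 of the 20 fell and 1 rose, again Aptx (0.61 ± 0.17). The LD-F1 call of Aptx was lost when either PBS replicate was left out. Its LD-F1_b call was lost when any single LD-F1_b or PBS library was left out. In nucleotide excision repair 1 of 21 genes fell with LD-F1 EVs, the damage sensor Ddb2 (-1.78 ± 0.47), and 1 rose, Cdk7 (0.36 ± 0.11). Ddb2 was scarce, at 0.525 and 0.782 CPM with LD-F1 EVs and 2.09 and 2.46 CPM with PBS. With LD-F1_b EVs edgeR called 0 of these 21, with 2 at an unadjusted p under 0.05 and 0 called by DESeq2. Mismatch repair genes other than Msh6 had 5 of 6 lower with LD-F1 EVs and 2 with LD-F1_b EVs, led by Pms1 (-0.98 ± 0.17). In summed CPM the members stood at 57.7% and 53.9% of the PBS mean in the LD-F1 libraries and at 69.2% and 65.3% in the LD-F1_b libraries. Nucleotide excision genes stood at 105.6% and 102% in the LD-F1 libraries and at 103% and 101% in the LD-F1_b libraries. When a single LD-F1_b or PBS library was left out, the LD-F1_b counts were 0 for end joining, 0 for mismatch repair and 0 or 1 lower for base excision, and the LD-F1 count for mismatch repair was 2 without PBS replicate 1 and 3 without PBS replicate 2. Without either PBS replicate, the LD-F1 counts were 1 lower for base excision and 0 for nucleotide excision. Without either LD-F1 library, the LD-F1_b counts were 2 lower for end joining, 4 for mismatch repair and 4 for base excision.

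**Figure D4:**
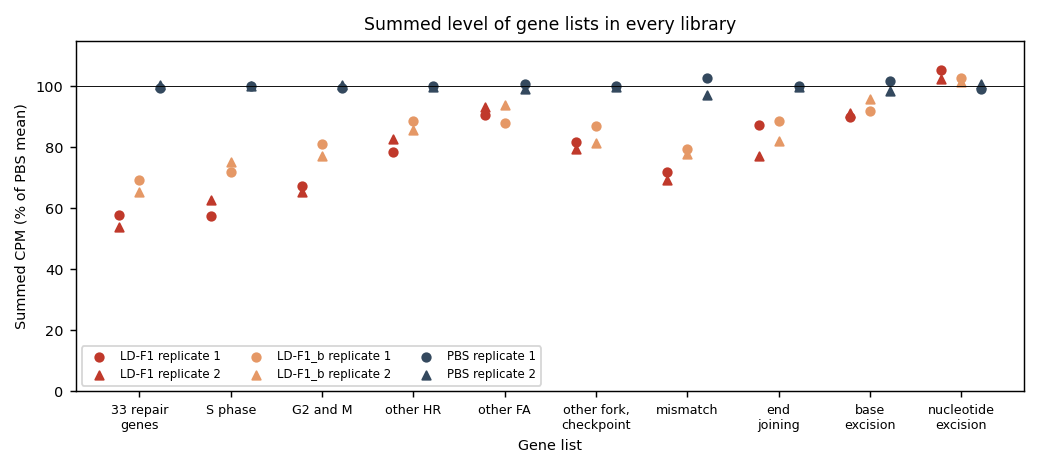
Summed CPM of each gene list in every library as a percentage of the mean of the PBS libraries. Circles are replicate 1 and triangles replicate 2. The 33 repair genes and the S phase genes lie lowest with LD-F1 EVs, and the nucleotide excision genes stay above 100% in all 4 EV libraries.

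Promoter windows of 300 bases, from 250 before to 50 after the start, were found in RefSeq (build GRCm38.p6) for 25 of the 33 members. They were searched on both strands for 4 E2F-type motifs. These were TTGGCGC, its near copy TTGGCGG, which shares its first 6 letters, then the motif TTCCCGC, and lastly the motif TTCGCGC. E2F proteins are the transcription factors that time S phase genes. At least 1 of the motifs stood in 64.0% of the 25 members, against 21.8% of 8474 genes tested with a window and 11.6% of all 27025 genes of the promoter table. TTCCCGC alone stood in 13 of the 25 members (52.0%, against 10.1% of genes tested and 5.29% of all genes). The CCAAT box was in 56.0% of members and 42.8% of genes tested, and TTTGAA, the core of the CHR element of G2 and M phase genes, in 8.0% and 14.2%. A match is a description of letters, not a shown site.

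The windows of Fanci (chr7:79392088-79392387, plus strand), Atad5 (chr11:80089150-80089449, plus strand) and Rad51ap1 (chr6:126939538-126939837, minus strand) are shown because these genes were among the lowest with LD-F1 EVs and each holds TTCCCGC in reverse, as GCGGGAA, beginning 18, 22 and 12 bases after the start. The windows of Xrcc3 (chr12:111813830-111814129, minus strand) and Atr (chr9:95857347-95857646, plus strand) are shown because these genes did not pass the test in either EV comparison. They hold 0 of the 4 motifs, but so do the windows of 7 members that fell with LD-F1 EVs, namely Rad54l, Aunip, Fanca, Blm, Timeless, Eme1 and Palb2. The 5 were chosen after their values were seen. Capitals mark E2F-type motifs, and each sequence reads along the gene from 5′ to 3′.
Fanci: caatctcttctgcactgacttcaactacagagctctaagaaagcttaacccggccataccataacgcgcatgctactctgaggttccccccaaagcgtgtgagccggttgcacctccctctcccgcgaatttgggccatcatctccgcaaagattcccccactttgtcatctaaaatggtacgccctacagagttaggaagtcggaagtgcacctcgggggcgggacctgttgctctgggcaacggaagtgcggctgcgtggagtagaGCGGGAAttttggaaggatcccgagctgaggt
Atad5: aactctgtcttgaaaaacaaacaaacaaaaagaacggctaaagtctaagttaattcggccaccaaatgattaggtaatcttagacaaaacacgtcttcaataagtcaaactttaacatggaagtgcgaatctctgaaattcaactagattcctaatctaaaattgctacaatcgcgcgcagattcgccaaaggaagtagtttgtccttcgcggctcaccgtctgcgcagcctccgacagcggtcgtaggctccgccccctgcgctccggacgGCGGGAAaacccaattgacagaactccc
Rad51ap1: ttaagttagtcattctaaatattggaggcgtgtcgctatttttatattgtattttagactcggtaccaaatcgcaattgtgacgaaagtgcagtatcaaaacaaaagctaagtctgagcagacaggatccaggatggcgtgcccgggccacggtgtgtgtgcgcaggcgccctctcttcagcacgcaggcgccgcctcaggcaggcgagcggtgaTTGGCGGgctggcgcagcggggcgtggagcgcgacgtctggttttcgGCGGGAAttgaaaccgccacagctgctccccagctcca
Xrcc3: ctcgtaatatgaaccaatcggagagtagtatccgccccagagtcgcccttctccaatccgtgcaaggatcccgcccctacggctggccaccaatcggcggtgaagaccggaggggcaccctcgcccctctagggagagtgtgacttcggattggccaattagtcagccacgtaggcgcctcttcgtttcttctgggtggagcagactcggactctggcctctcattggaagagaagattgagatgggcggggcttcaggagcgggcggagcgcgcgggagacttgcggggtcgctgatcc
Atr: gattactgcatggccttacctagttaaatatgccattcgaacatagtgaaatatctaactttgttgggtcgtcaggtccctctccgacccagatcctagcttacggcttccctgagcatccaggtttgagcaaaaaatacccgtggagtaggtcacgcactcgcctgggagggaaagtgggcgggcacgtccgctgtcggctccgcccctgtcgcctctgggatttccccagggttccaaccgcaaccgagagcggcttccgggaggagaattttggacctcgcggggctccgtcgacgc

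Reads of genes that overlap on opposite strands cannot be told apart here, since the strand setting is not given. That applies to 7 members whose span overlaps an opposite entry with at least 60 reads: Msh6, Atr, Rad54l, Fanca, Xrcc3, Eme1 and Fanci. The overlapping genes of the 5 among them that fell with LD-F1 EVs were at 0.21 ± 0.10 (Fbxo11, at Msh6), -0.21 ± 0.11 (Lrrc41, at Rad54l), -0.08 ± 0.12 (Zfp276, at Fanca), -0.29 ± 0.10 (Polg, at Fanci), 0.33 ± 0.09 (Lrrc59, at Eme1) and 0.15 ± 0.20 (Mrpl27, at Eme1) in the same comparison, each closer to 0 than the member it overlaps. Xrcc3 and Atr did not fall. Xrcc3 (-0.14 ± 0.14, 1809 reads) overlaps Klc1, which had more reads and a similar value (-0.11 ± 0.08, 10543 reads). Atr (2941 reads) overlaps the scarce entry Gm16794 (1.36 ± 0.84, 64 reads). The part of Klc1 reads in the value of Xrcc3 was not tested. By the table's own positions, whose identifiers come from the C57BL/6NJ annotation, Fanci lies on chromosome 7 from 84473354 to 84532804 (MGP_C57BL6NJ_G0032871).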

How the data were processed

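The authors deposited raw counts, whole numbers per gene and library, for 6 libraries. The tools named in the submitters' processing notes are featureCounts 1.5.0-p3, StringTie 1.3.3b, HISAT2 2.0.5 and fastp, and the build is GRCm39. The identifiers are those of the C57BL/6NJ annotation, apart from 876 assembled loci. The sources used here state neither the strand setting nor how multi-mapped reads were counted. The table had 0 entries without an identifier and 0 unmatched sample columns.

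Counts were tested with the quasi-likelihood test of edgeR 4.0.16 (R 4.3.3), with filterByExpr, TMM scaling (factors 0.965 to 1.04), a mean per group over all 6 libraries, 3 residual degrees of freedom and Benjamini-Hochberg adjustment over 12740 genes. CPM are TMM-scaled, and SE are computed back from the test. A floor of 3 reads is 0.189 to 0.225 CPM, for counting error only. On simulated counts with 200 changed genes, of 12516 tested, LD-F1 against PBS recovered 68 of 100 changes of 1 on the log2 scale. Of 100 changes of 2 it recovered 86. It also called 22 unchanged genes, a larger share of its calls than the adjusted p threshold allows on average. LD-F1_b against LD-F1 recovered 70 and 87 and called 12 unchanged genes. LD-F1_b against PBS, with 0 changed genes, had 1 call. How closely simulated counts follow the real libraries, for example along gene length, was not tested, nor was the share of false calls in the real data.

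The members and lists were chosen with earlier results of these data known, and genes of other lists were named by size among called genes with a mean of at least 1 CPM (at most 3 a direction), with a few cell-cycle genes such as Mki67 and Trp53 named whatever their values. Of the names absent from the table, older RefSeq symbols placed 5. Alternatives covered scaling, filters, DESeq2 1.42.0, the groups in the fit, the replicate block, gene length and leaving out each library.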

Additional observations from a re-analysis of the deposited data

How the results depend on the processing

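The members' medians kept their direction under all 15 alternatives in each comparison, and 0 members were called higher than PBS under any of them. Members lower numbered 26 to 30 for LD-F1 EVs under the alternatives that keep all libraries and 23 to 28 with 1 library left out. For LD-F1_b EVs they numbered 21 to 25, and 6 to 25 with 1 library left out. With library totals alone the median of all genes for LD-F1 EVs was -0.10 in place of 0.01 and that of the members -1.02, and the share of calls that were higher was 33.6% in place of 53.5% (for LD-F1_b EVs 41.7% in place of 58.7%).

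Over all genes, totals alone gave 1934 lower for LD-F1 EVs and 880 lower for LD-F1_b EVs, and only the groups compared gave 1578 higher and 1520 lower for LD-F1_b EVs. Leaving out 1 library gave 689 to 2289 higher and 524 to 2208 lower for LD-F1 EVs, and 304 to 1629 higher and 93 to 1536 lower for LD-F1_b EVs, where fewer samples also leave fewer degrees of freedom. Between the EV groups, where 2 genes were higher and 52 lower, totals alone gave 5 higher, no filter 48 higher and 137 lower, DESeq2 19 and 86, only the groups compared 0 and 33, length offsets 19 and 94, and length offsets with the replicate block 15 and 93. Leaving out 1 library gave 0 to 602 higher and 0 to 550 lower. Members higher there numbered 3 without a filter (Exo1, Msh6, Timeless), 1 with DESeq2 and 1 with length offsets (Exo1 in both), and 0 to 8 with 1 library left out. The cause was not tested.

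The sources used here do not say whether a replicate number marks a shared mouse or day. Deviations of same-numbered libraries from their group means correlated at -0.02 to 0.08 across genes, which cannot show whether the samples were paired. With the replicate block 28 members were lower for LD-F1 EVs, 24 for LD-F1_b EVs and 0 differed between EV groups. With length offsets, which remove each library's trend on gene length, the members' medians were -0.86 and -0.60. Among single members, 87 of the values under alternatives lost a call and 47 gained one, with 0 reversals of a called value. The scarcest members, Rad54b and Fancg, rest on 282 and 432 reads in all.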
